A study of Mus musculus with 2 samples.

Results

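The mouse Hox genes examined here are the 39 genes of the Hoxa, Hoxb, Hoxc and Hoxd clusters, taken as every non-control probe on the array whose gene name is Hoxa, Hoxb, Hoxc or Hoxd followed by a paralogue number from 1 to 13. They are 39 of 31870 gene names and 44 of 39429 probes: 11 Hoxa genes, 10 Hoxb genes, 9 Hoxc genes and 9 Hoxd genes. The RNA was total RNA of dissected ureters, taken at E14.5 from embryos of the NMRI strain, and it was compared on 2 two-colour Agilent arrays. The RNA labelled Gata2cKO came from Tbx18(cre/+);Gata2(fl/fl) embryos, and the control RNA from Tbx18(+/+) embryos with at least 1 floxed Gata2 allele, the other allele being unstated in the labels. Only the Gata2cKO RNA therefore carries Cre and the altered Tbx18 allele, and Cre is driven from the Tbx18 locus, which is active in the mesenchyme around the ureter and not in its epithelium. On array 1 both RNAs were female, the control in Alexa Fluor 555 and the Gata2cKO in Alexa Fluor 647. On array 2 both were male and the dyes were exchanged, so sex and dye orientation change together and cannot be told apart. How many embryos were pooled for an RNA is not stated in the labels. The p-values rest only on spread between these 2 arrays, a gene's own and, for the larger part, that shared over all genes tested. Part of that spread may be technical.

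Hox genes encode homeodomain transcription factors that give cells a position along the body axis. Within each cluster the genes stand in the order in which they are used along that axis, low paralogue numbers at the 3′ end and in anterior tissue, high numbers at the 5′ end and in posterior tissue, and genes of the same number in different clusters are paralogues with related sequence and partly shared roles. In the urogenital tract the Hox11 paralogues act with Eya1 and Pax2 to activate Six2 and Gdnf in the metanephric mesenchyme, which induces the ureteric bud, Hoxa10, Hoxa11 and Hoxa13 pattern the reproductive ducts, and the group 13 genes act in the hindgut, the genital tubercle and the lower urinary tract.

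The probes are 60 bases long, and paralogues share most of their sequence in the homeobox, so the sequences of 3 probes are shown to let a reader see what separates them. The first 2 lie in the homeobox coding sequence of a Hoxc and a Hoxd gene, and the last covers the end of the Hoxd11 coding sequence. In the first 2, capitals mark the codons of the stretch of identical amino acids that these probes share. In the last, capitals mark the stop codon.
Hoxc11: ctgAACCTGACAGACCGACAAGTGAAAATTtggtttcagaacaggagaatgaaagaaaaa
Hoxd10: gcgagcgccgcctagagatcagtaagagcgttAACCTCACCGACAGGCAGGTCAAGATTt
Hoxd11: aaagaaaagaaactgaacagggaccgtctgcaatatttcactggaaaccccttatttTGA
In mm9, the build of the scanner files, the Hoxc11 probe is at chr15:102787022-102787081, the Hoxd10 probe at chr2:74532280-74532339 and this Hoxd11 probe at chr2:74522136-74522195, all on the plus strand. The Hoxc11 and Hoxd10 probes code for the same 9 amino acids over 27 bases, of which 20 are identical. Over all 941 pairs of probes to different Hox genes, the longest run of identical bases was 11, between Hoxb4 and Hoxc11 and between Hoxc11 and Hoxc12. The probes of a cluster cover 103648 bases of chromosome 6 for Hoxa, 170657 bases of chromosome 11 for Hoxb, 108215 bases of chromosome 15 for Hoxc and 93812 bases of chromosome 2 for Hoxd.

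Each array held 43020 non-control spots, and 66.0% to 69.4% of them were well above background in a channel. After loess normalisation within each array, 20506 genes were tested, each with a probe that 1 of the RNAs brought above background on array 1 and on array 2. Across those genes the 2 arrays' log2 ratios of Gata2cKO over control had a Pearson r of 0.06, a description across genes, which are not independent replicates. Gata2 itself, the gene the genotype targets, gave signals of 44150 and 44550 in the control and of 55400 and 64950 in the RNA labelled Gata2cKO. It was thus brighter in the RNA labelled Gata2cKO on both arrays, by a mean log2 ratio of 0.44 ± 0.15 (SD, n = 2; limma adjusted p = 0.409). The labels do not say which exons are floxed, so a probe outside them would check nothing, and every direction given here rests on the sample labels.

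Of the 39 Hox genes, 34 were above background, and these were all 11 Hoxa genes, 8 of 10 Hoxb genes, 6 of 9 Hoxc genes and all 9 Hoxd genes. Signals are given in arbitrary units. In the gene-by-gene values, a probe's level is compared only with other levels of the same probe, on either array. Normalisation was within each array, so levels were not brought to a common scale between arrays. Whether groups overlap, or control values coincide, may therefore partly reflect a difference between the arrays, while each log2 ratio is taken within an array. The share of all genes whose groups did not overlap is not given here. Hoxa probes used for the test spanned signals from 435 for Hoxa4 to 29376 for Hoxa10, and Hoxb probes from 3518 to 19732. Hoxc probes spanned 139 to 9137 and Hoxd probes 306 to 21997. Hoxc11, of the group that acts in the kidney's mesenchyme, was above background on both arrays only in the RNA labelled Gata2cKO, so it entered the test through the group in which it was brighter. The remaining 33 were well above background in both channels of both arrays.

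The 5 Hox genes not tested were Hoxb1, Hoxb13, Hoxc5, Hoxc12 and Hoxc13. Hoxb1, an early hindbrain gene printed as 10 spots per array, gave signals of 129 to 139 in the 4 channels, none of them well above background. Hoxc12 gave 116 to 123 and Hoxc13 gave 90.4 to 117, again with no channel well above background. Hoxb13, which is used at the tail end of the body axis, was above background only in the Gata2cKO channel of array 2, at a signal of 193 against 82.3 in that array's control. Its array 1 signals were 82.5 in Gata2cKO and 70.2 in the control, neither well above background. Hoxc5 gave 175 to 184, with each RNA above background on 1 array only.

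**Figure D1:**
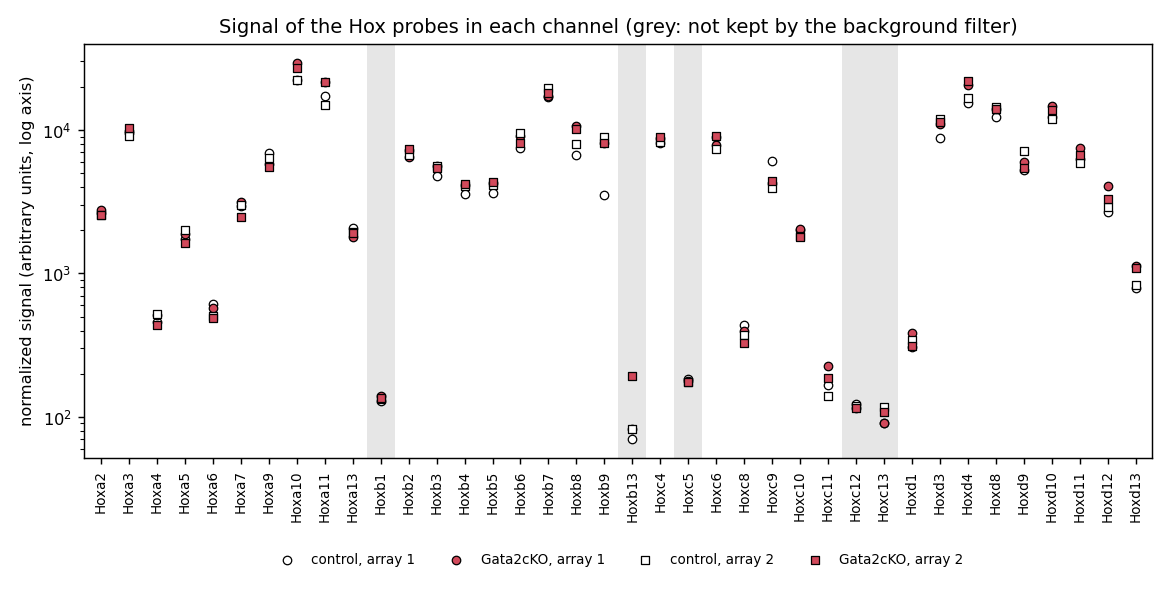
Normalized signal (arbitrary units, log axis) of the probe that stands for a gene, shown for 38 Hox genes, with circles for array 1, squares for array 2, open symbols for control and filled symbols for Gata2cKO; grey bands mark the 5 genes not tested. The symbols of most genes lie close together. Hoxd13, Hoxa11 and Hoxd4 are examples with both filled symbols above both open ones, which also holds for genes with small ratios such as Hoxa3 and Hoxc4. The control of array 1 stands apart for Hoxb9, at 3518 against 8885 in the control of array 2.

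No Hox gene passed an adjusted p of 0.05 by limma, where 18 of 20506 genes did (0.0878%). At an unadjusted limma p under 0.05, 7 of 34 Hox genes were higher in the RNA labelled Gata2cKO, and these were Hoxa10, Hoxa11, Hoxb8, Hoxc11, Hoxd4, Hoxd12 and Hoxd13. That is 20.6% of the Hox genes tested, beside 3.75% of all genes tested in that direction. Without Hoxc11 the count was 6 of 33. It was 1 of 34 with median centring in place of loess (1.02% of all genes) and 5 of 34 in the authors' deposited table (2.32%). In that table Hoxb8, Hoxc11 and Hoxd4 were lower in both columns, so those 5 are not drawn from the 7 alone. None of the 34 was lower at that p, beside 3.41% of all genes. No Hox gene differed by at least 1.5-fold on both arrays with the same sign (0.712% of all genes). By sign alone, 15 of 34 were higher on both arrays (27% of all genes), 4 were lower on both (26.2%), and 15 had opposite signs (46.8%). The median log2 ratio of the 34 was 0.08, with 0.18 on array 1 and 0.03 on array 2, while the median of all genes tested was 0.00 on both. In the authors' deposited table the median of the same 34 had the opposite sign, at -0.0133. All the differences described next are therefore below the adjusted threshold, and most are under 1.5-fold.

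The highest paralogue numbers, 10 to 13, held 5 of the 7 genes with an unadjusted p under 0.05, a split chosen after the values were seen. Of their 9 tested genes, 7 were higher on both arrays, Hoxa13 was lower on both and Hoxc10 had opposite signs. Their median log2 ratio was 0.34, with 0.32 on array 1 and 0.21 on array 2. Without Hoxc11, which its brighter RNA alone brought past the background filter, 6 of 8 were higher on both arrays, 4 had an unadjusted limma p under 0.05 and the median was 0.28. The 25 tested genes numbered 1 to 9 had a median of 0.06, with 0.12 on array 1 and -0.06 on array 2. Of those 25, 8 were higher on both arrays (32%, near the 27% of all genes), 3 lower on both and 14 of opposite sign. By cluster, the genes numbered 10 to 13 that were higher on both arrays were 2 of 3 in Hoxa, 1 of 2 in Hoxc and 4 of 4 in Hoxd, and no Hoxb gene of these numbers was tested.

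**Figure D2:**
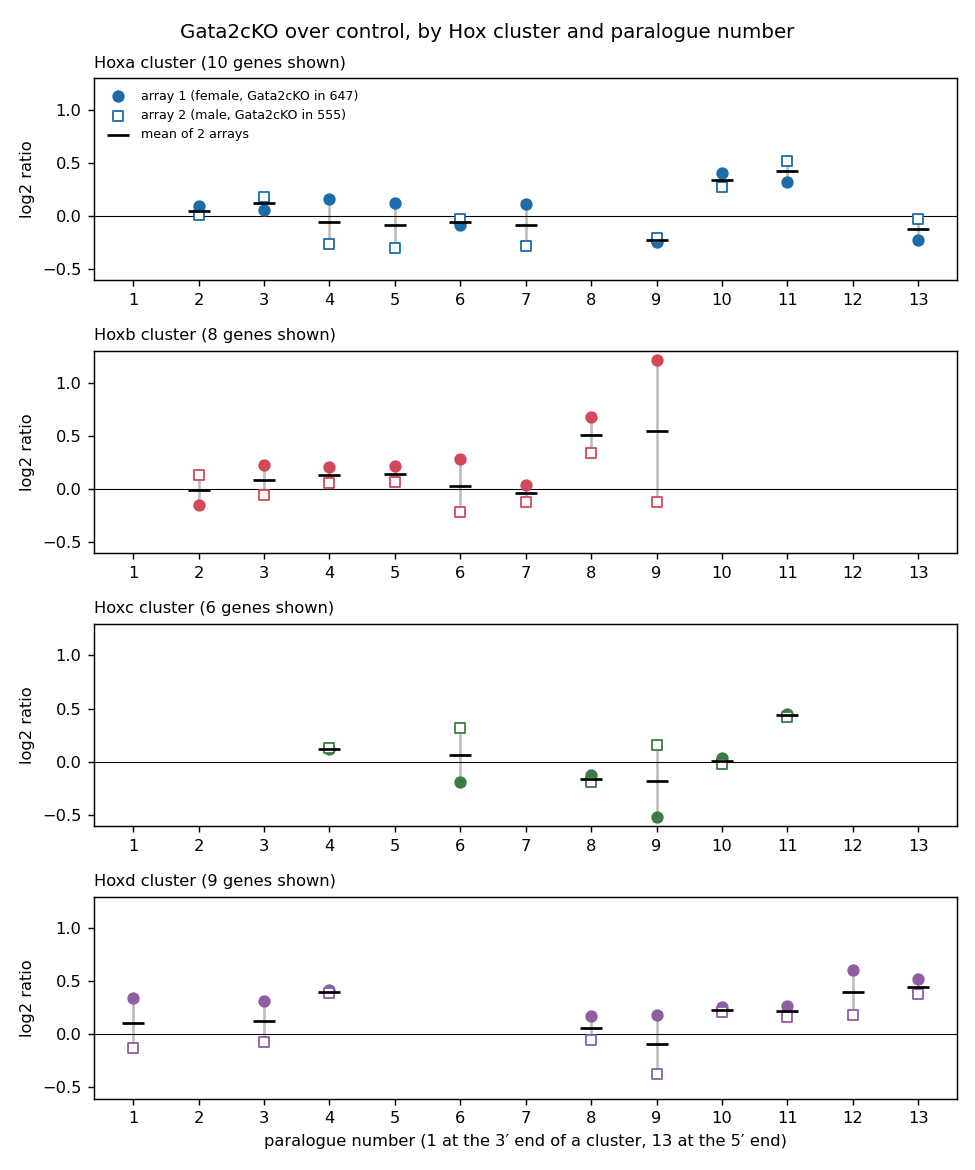
Log2 ratio of Gata2cKO over control (vertical axis) for 33 of the tested Hox genes by paralogue number (horizontal axis), with a panel for each cluster, a filled circle for array 1, an open square for array 2 and a bar for the mean. In the Hoxd panel both symbols of numbers 10 to 13 lie above 0, from 0.17 to 0.61, while in the Hoxb panel the symbols of Hoxb9 lie apart, at 1.21 and -0.12.

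The 5′ end of the Hoxd cluster was the only stretch of neighbouring Hox genes in these data in which 4 genes in a row were higher on both arrays. The 4 genes, Hoxd13 to Hoxd10, pattern the distal limb and the genital and lower urinary region. Hoxd13 gave control signals of 789 on array 1 and 834 on array 2, and Gata2cKO signals of 1131 and 1087. Both Gata2cKO values were above both control values, and the log2 ratios were 0.52 and 0.38, a mean of 0.45 ± 0.10 (SD, n = 2), 1.37-fold (limma adjusted p = 0.355). Its probe is at chr2:74509248-74509307.

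Hoxd12, the next gene, gave 2669 and 2912 in the control and 4074 and 3314 in Gata2cKO. The groups did not overlap, although array 1 carried most of the difference, with a log2 ratio of 0.61 against 0.19 on array 2. The mean was 0.40 ± 0.30 (SD, n = 2), 1.32-fold (limma adjusted p = 0.613). Hoxd11, a Hox11 paralogue needed with Hoxa11 for kidney growth, gave 6234 and 5909 in the control and 7514 and 6638 in Gata2cKO with the probe printed above. The groups again did not overlap, and the mean log2 ratio was 0.22 ± 0.07 (SD, n = 2; limma adjusted p = 0.759). Hoxd10, which works in the spinal cord, limb and kidney, gave 12250 and 11913 in the control and 14603 and 13762 in Gata2cKO. Here too both Gata2cKO values were the higher ones, with a mean log2 ratio of 0.23 ± 0.03 (SD, n = 2; limma adjusted p = 0.735), the smallest SD of the 4.

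A second probe for Hoxd11, whose start lies 2878 bases from that of the first, showed a larger difference. It gave 4804 and 4328 in the control and 7509 and 8075 in Gata2cKO. The log2 ratios were 0.64 and 0.90, a mean of 0.77 ± 0.18 (SD, n = 2), so this probe was above 1.5-fold on both arrays. In the limma fit over all 25657 probes, its adjusted p was 0.151, above the threshold that 0.0585% of all probes passed. Over the 38 Hox probes kept, 8 were higher at an unadjusted p under 0.05, beside 3.69% of all probes. The 2 Hoxd11 probes thus had the same direction and differed in size, and what the second probe measures beyond the first was not tested.

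In the Hoxa cluster the same numbers split. Hoxa10, a gene of the uterine and kidney mesenchyme, gave 22220 and 22319 in the control and 29376 and 26937 in Gata2cKO. Its control values nearly coincided, both Gata2cKO values lay above them, and the mean log2 ratio was 0.34 ± 0.09 (SD, n = 2), 1.26-fold (limma adjusted p = 0.566). Hoxa11 gave 17223 and 15012 in the control and 21508 and 21485 in Gata2cKO. The Gata2cKO values nearly coincided and the control values were lower, for a mean log2 ratio of 0.42 ± 0.14 (SD, n = 2), 1.34-fold (limma adjusted p = 0.422).

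Hoxa11 is printed as 10 spots on each array, which shows how closely a Hox value repeats within an array. Its spots spanned log2 ratios of 0.27 to 0.42 on array 1 (SD 0.06) and 0.41 to 0.58 on array 2 (SD 0.06), so every spot was above 0. The spots of an array share their RNA and labelling and are not replicates of the condition. Hoxa13, the last gene of the cluster and required for the genital tubercle and bladder region, gave 2090 and 1947 in the control and 1784 and 1909 in Gata2cKO. It was lower on both arrays, by log2 ratios of -0.23 and -0.03, with a mean of -0.13 ± 0.14 (SD, n = 2; limma adjusted p = 0.894). Its second probe gave -0.01 and -0.11. Hoxa13 and Hoxd13 therefore had opposite signs of the mean.

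Only 2 Hoxc genes numbered 10 or above were tested. Hoxc11 was dim, at 167 and 139 in the control and 228 and 186 in Gata2cKO. The log2 ratios were 0.45 and 0.42, a mean of 1.35-fold as observed (limma adjusted p = 0.355). The control was not well above background on either array, so its level, and with it the ratio, is uncertain. The mean log2 ratio of Hoxc11 was 0.90 from the scanner software's processed signals and -0.13 in the authors' deposited table. Hoxc10, which is used in the lumbar region and the hindlimb, gave 2002 and 1832 in the control and 2044 and 1808 in Gata2cKO. Its groups overlapped, and the mean log2 ratio was 0.01 ± 0.03 (SD, n = 2; limma adjusted p = 0.997).

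Paralogue number 9, the next group toward the 3′ end, had no member that was higher on both arrays. Hoxa9, which acts with the other group 9 genes in the limb and in blood progenitors, gave 6927 and 6414 in the control and 5825 and 5536 in Gata2cKO. Both Gata2cKO values were the lower ones, with log2 ratios of -0.25 and -0.21 and a mean of -0.23 ± 0.03 (SD, n = 2; limma adjusted p = 0.735). It had the lowest mean of the 34 Hox genes, but its second probe gave -0.13 and 0.09. Hoxd9 gave 5267 and 7087 in the control and 5995 and 5463 in Gata2cKO, so its groups overlapped (mean log2 ratio -0.09 ± 0.40, SD, n = 2; limma adjusted p = 0.964).

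Hoxb9 and Hoxc9 had the largest gaps between the arrays among all the tested Hox genes. Hoxb9 gave 3518 and 8885 in the control and 8137 and 8153 in Gata2cKO. The Gata2cKO values were alike, and the array 1 control alone was low, so the log2 ratio was 1.21 on array 1 and -0.12 on array 2. The mean of 0.54 ± 0.94 (SD, n = 2; limma adjusted p = 0.789) describes neither array, and without array 1 the value was -0.12. Hoxc9 gave 6112 and 3961 in the control and 4258 and 4417 in Gata2cKO. Here the array 1 control was the high value, with log2 ratios of -0.52 and 0.16 (mean -0.18 ± 0.48, SD, n = 2; limma adjusted p = 0.914).

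Among the genes numbered 1 to 8, Hoxb8 and Hoxd4 stood out. Hoxb8, a trunk gene also used in blood progenitors and spinal cord, gave 6678 and 7977 in the control and 10698 and 10085 in Gata2cKO. The groups did not overlap, and the log2 ratios of 0.68 and 0.34 gave a mean of 0.51 ± 0.24 (SD, n = 2), 1.42-fold (limma adjusted p = 0.374). Hoxd4, a gene of the hindbrain and upper vertebrae, gave 15502 and 16814 in the control and 20659 and 21997 in Gata2cKO. The arrays differed little in ratio, 0.41 and 0.39, for a mean of 0.40 ± 0.02 (SD, n = 2), 1.32-fold (limma adjusted p = 0.408).

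Hoxb7, whose promoter is widely used to mark the ureteric bud epithelium and its descendants, gave 16893 and 19732 in the control and 17362 and 18049 in Gata2cKO. Its groups overlapped, and the mean log2 ratio was -0.04 ± 0.12 (SD, n = 2; limma adjusted p = 0.986). The other 18 genes numbered 1 to 8 had means between -0.16 for Hoxc8 and 0.14 for Hoxb5. Of these, 6 were higher on both arrays, among them Hoxa2, Hoxa3, Hoxb4, Hoxb5 and Hoxc4, while Hoxa6 and Hoxc8 were lower on both, and the other 10 had opposite signs. Hoxc4, an anterior trunk gene, had almost the same ratio on both arrays, 0.12 and 0.13 (limma adjusted p = 0.890). Hoxa5, which acts in the lung, skeleton and gut, had 0.12 on array 1 and -0.30 on array 2, and Hoxa7 had 0.11 and -0.29. Hoxc6, a trunk gene, went the other way, with -0.19 and 0.32.

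**Figure D3:**
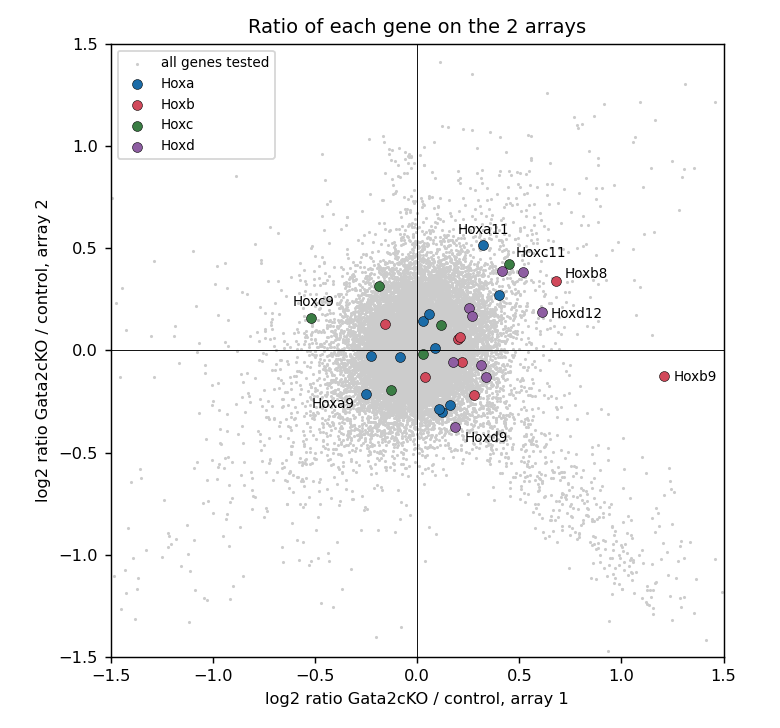
Log2 ratio of Gata2cKO over control on array 1 (horizontal) against array 2 (vertical), with grey points for all genes tested that lie within 1.5 on both axes and coloured points for the 34 Hox genes by cluster. In the upper right, where both arrays are above 0, lie 15 Hox genes, in the lower left 4, and Hoxb9 lies alone at 1.21 on the horizontal axis.

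The 15 Hox genes of opposite sign did not fall evenly over the dye orientations. In 12 of them the Alexa Fluor 647 channel was the brighter one on both arrays (35.3% of the 34, beside 23% of all genes tested). In 3 the 555 channel was, beside 4877 of the 20506 genes tested. The 12 have a positive ratio on the female array and a negative one on the male array, and the 3 the reverse. For each of them sex and dye cannot be told apart. On array 1 alone, 3 Hox genes were at or beyond 1.5-fold (Hoxb8, Hoxb9 and Hoxd12; 3.45% of all genes were), and on array 2 none (3.42% of all genes). Across the 34 Hox genes the 2 arrays' ratios had a Pearson r of 0.20 and a Spearman rho of 0.31, described without a test, since the genes share both arrays.

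Medians by cluster followed these genes. The Hoxd cluster had a median log2 ratio of 0.22 over 9 genes, with 0.31 on array 1 and 0.17 on array 2, and none of its genes was lower on both arrays. The Hoxb median was 0.10 over 8 genes, with 0.22 on array 1 and 0.00 on array 2. The Hoxa median was -0.05 over 11 genes, with 0.09 and -0.03 on the arrays, and Hoxa held 3 of the 4 Hox genes lower on both. The Hoxc median was 0.03 over 6 genes, with -0.05 and 0.14. The Hoxd median alone had the same sign and at least 0.17 on each array.

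By paralogue number, the 3 members of group 11 tested (Hoxa11, Hoxc11 and Hoxd11) were higher on both arrays, with a median of 0.42. Hoxc11 was favoured by the filter, and without it the median of the other two was 0.32. Group 10 had a median of 0.23 over 3 genes, and group 9 one of -0.14 over 4. Group 7, with Hoxa7 and Hoxb7, had opposite signs in both members. Over all 34 genes the mean ratio and the paralogue number had a Spearman rho of 0.17. Within clusters rho was 0.52 in Hoxd over 9 genes, 0.50 in Hoxb over 8, 0.03 in Hoxc over 6 and -0.18 in Hoxa over 11, so no common slope along the clusters was seen. Genes of a cluster share both arrays, and these are descriptions only. With cut points moved to 9 to 13, the median over 13 genes was 0.23.

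Brightness was compared with these values. Among the brightest 5127 of all genes tested were 4 Hox genes, and of these Hoxa10, Hoxa11 and Hoxd4 had an unadjusted limma p under 0.05 while Hoxb7 did not. The median log2 ratio of these 4 was 0.37, beside 0.006 for all 5127 genes. Of the 4, 3 were higher on both arrays, beside 1103 of the 5127 (27% of all genes tested). A smaller share of the 5127 than of all genes tested (3.75%) was higher at that p. All genes thus showed no rise with brightness like that of these 4. Without those 5127 genes, 12 of 30 Hox genes were higher on both arrays (28.8% of all genes so left), 4 were higher at an unadjusted limma p under 0.05 (4.31%), and the median was 0.07.

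Near the Hox genes, transcripts of the opposite strand were measured for 2 loci. Hoxa11os, the antisense RNA of the Hoxa11 locus, gave 26220 and 19850 in the control and 26450 and 26430 in Gata2cKO. Its array 2 control was the low value, for log2 ratios of 0.01 and 0.41 (limma adjusted p = 0.820). By sign it was thus higher on both arrays, as Hoxa11 was, but it was almost unchanged on array 1. In the authors' deposited table it was at -0.09 and 1.04. Hoxd3os1, antisense at Hoxd3, gave log2 ratios of -0.01 and -0.08.

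The authors' deposited table gives a signed fold for each probe on each array, here turned into log2 ratios. In the authors' deposited table, 10 of 34 Hox genes were higher in Gata2cKO in both columns (21% of all genes tested) and 12 were lower in both (21.3%). The sign of the mean was the same as in the loess values for 18 of 34. For 6 of the 7 genes numbered 10 to 13 that were higher on both arrays from the scanner signals, the deposited values had the same sign. Hoxd13 had 0.98 and 0.58 there, Hoxd12 0.72 and 0.81, Hoxd10 0.29 and 0.80, and Hoxd11 0.31 and 0.50. Hoxa10 had 0.52 and 0.48, and Hoxa11 0.56 and 0.47. These 6 genes were thus higher in both columns and on both arrays in either processing of the same 2 arrays, which is not an independent measurement.

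Other Hox genes changed sign in the authors' deposited table. Hoxb8 was at -0.64 and -0.57 there, Hoxb9 at -0.35 and -1.01, Hoxd4 at -0.46 and -0.16, and Hoxc11 at -0.08 and -0.17. The 3 genes with the largest means outside numbers 10 to 13, namely Hoxb9, Hoxb8 and Hoxd4, therefore had a direction that depended on the processing. In the other direction, Hoxa9 was at -0.22 and 0.33 and Hoxa13 at -0.08 and 0.73. Medians from the authors' deposited table were 0.50 for numbers 10 to 13 and -0.09 for 1 to 9, and by cluster 0.11 for Hoxa, -0.28 for Hoxb, 0.07 for Hoxc and 0.24 for Hoxd. For Hoxa and Hoxb these have the opposite sign to the loess medians.

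**Figure D4:**
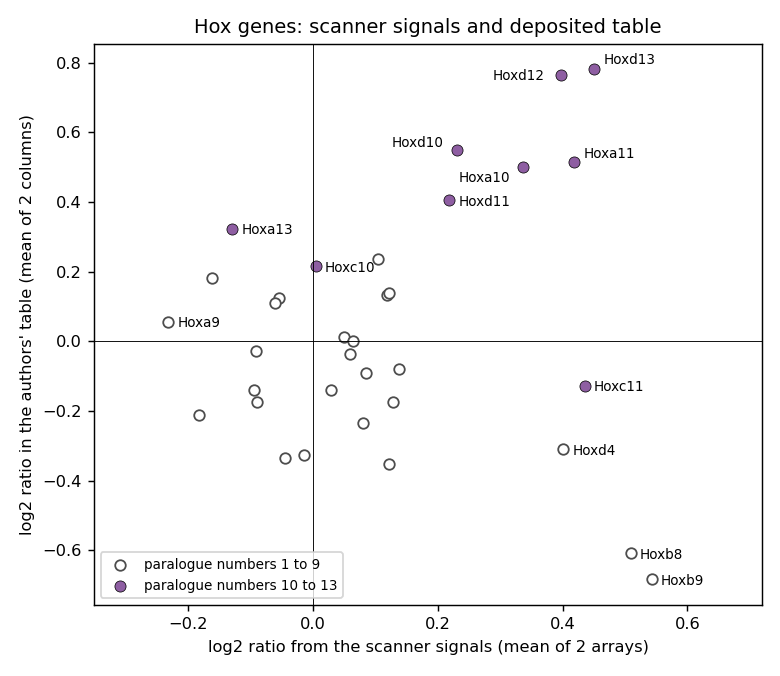
Mean log2 ratio from the scanner signals (horizontal) against the mean log2 ratio in the authors' deposited table (vertical) for the 34 tested Hox genes, with filled points for paralogue numbers 10 to 13 and open points for 1 to 9. The 6 filled points of Hoxa10, Hoxa11 and Hoxd10 to Hoxd13 lie in the upper right, from 0.40 to 0.78 on the vertical axis, and Hoxb8, Hoxb9 and Hoxd4 lie in the lower right.

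The promoters of 3 of the neighbouring Hoxd genes that were higher on both arrays are shown, as the 250 bases before the annotated start, from RefSeq on GRCm38.p6. Capitals mark matches to the GATA motif, searched on both strands as AGATAA with G allowed in place of the last A and T in place of the first.
Hoxd13: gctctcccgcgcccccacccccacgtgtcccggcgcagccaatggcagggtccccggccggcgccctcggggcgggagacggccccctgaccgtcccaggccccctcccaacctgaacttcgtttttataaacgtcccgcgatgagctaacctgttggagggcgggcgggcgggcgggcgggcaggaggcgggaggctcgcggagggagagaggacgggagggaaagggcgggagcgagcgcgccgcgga
Hoxd12: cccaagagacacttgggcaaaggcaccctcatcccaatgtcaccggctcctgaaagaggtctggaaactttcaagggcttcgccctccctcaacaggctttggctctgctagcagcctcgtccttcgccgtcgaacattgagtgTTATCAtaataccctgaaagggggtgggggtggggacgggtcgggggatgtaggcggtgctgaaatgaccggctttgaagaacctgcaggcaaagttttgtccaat
Hoxd10: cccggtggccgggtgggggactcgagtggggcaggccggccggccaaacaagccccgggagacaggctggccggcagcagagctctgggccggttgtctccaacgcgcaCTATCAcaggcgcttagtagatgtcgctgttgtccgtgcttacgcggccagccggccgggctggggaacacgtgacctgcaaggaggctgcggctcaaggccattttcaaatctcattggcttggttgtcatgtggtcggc
These windows are chr2:74667975-74668224 for Hoxd13, chr2:74674763-74675012 for Hoxd12 and chr2:74691641-74691890 for Hoxd10, all on the plus strand. Hoxd12 and Hoxd10 held 1 match each and Hoxd13 none. The 2 windows listed for Hoxd11, not printed, held none. Of 24 promoters matched by symbol to 22 of the Hox genes, 6 held a match (25%), beside 26.5% of 32851 promoters of all genes. A match is a string of letters and does not show binding. The Hox windows were richer in G and C, with a median of 58.6% against 52.4%.

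Cofactors and regulators of Hox genes were read from lists, and none of their members passed an adjusted limma p of 0.05. The TALE homeodomain proteins bind DNA together with Hox proteins. Of 11 tested, 4 were higher on both arrays and none lower on both, with a median of 0.03. For this and the lists that follow, 27% of all genes tested were higher on both arrays and 26.2% lower on both. Pbx3, one of these cofactors, had log2 ratios of 0.12 and 0.36 (limma adjusted p = 0.758).

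Polycomb and trithorax proteins keep Hox clusters silent or active. Of 24 tested, 11 were higher on both arrays and 2 lower, with a median of 0.06. Bmi1, a Polycomb repressive complex subunit, had 0.23 and 0.37, and Suz12, a subunit of the complex that methylates histone H3, had 0.21 and 0.32 (limma adjusted p = 0.637 and 0.699). The neighbours of the clusters had a median of -0.01 over 13 tested genes, of which 2 were higher and 4 lower on both arrays. Of these neighbours, Evx1, beside Hoxa13, had -0.37 and -0.15, and Snx11 had -0.05 on each array. Lnpk, on the 5′ side of the Hoxd cluster, had 0.13 and 0.03. None of 6 ParaHox genes, the sister family that includes the Cdx regulators of Hox genes, was above background.

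Retinoic acid, made by Aldh1a enzymes and broken down by Cyp26 enzymes, turns on 3′ Hox genes in early embryos. Of 17 genes of that pathway tested, 4 were higher on both arrays and 10 lower on both, with a median of -0.08. Cyp26a1 gave 1043 and 747 in the control and 198 and 239 in Gata2cKO. It was far lower on both arrays, by log2 ratios of -2.40 and -1.64, just above the threshold (limma adjusted p = 0.0503). Aldh1a3 was at 1.11 and 0.57 (limma adjusted p = 0.208), but at a mean of -0.20 in the authors' deposited table. Among 16 partners and targets of Hox proteins in the urogenital tract, 7 were higher on both arrays and 8 lower, and the median was -0.04. Wnt11, a ureteric tip gene, had -0.57 and -0.64 (limma adjusted p = 0.197). Ret had -0.96 and -0.45, and Tshz3, a ureteric mesenchyme gene, had 0.61 and 0.44 (limma adjusted p = 0.263 for each).

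A dissected ureter holds several cell types, and fewer cells of a type cannot be told apart from less RNA per cell. The markers of ureteric mesenchyme were above background in all 14 listed genes, with summed signals of 423100 and 412900 in the control and of 437400 and 462800 in Gata2cKO, and 8 were higher and 3 lower on both arrays. Nephron progenitor and kidney stroma markers, from tissue next to the ureter that uses group 10 and 11 Hox genes, summed to 127800 and 117100 in the control and to 126000 and 118300 in Gata2cKO, with 4 of 8 higher and 4 lower on both arrays. Of these, Six2 had 0.23 and 1.09 and Gdnf 0.15 and 1.09, while the means in the authors' deposited table were -0.25 for Six2 and 1.12 for Gdnf. Urothelial markers summed to 286100 and 335900 against 332400 and 361800, with 10 of 14 higher on both arrays. For these 14, the authors' deposited table has 1 higher and 6 lower in both columns and a median of -0.17.

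Most members of 5 other marker lists were lower on both arrays in the RNA labelled Gata2cKO. Smooth muscle markers were lower on both in 8 of 11, with a median of -0.49, and neuron and glia markers in 14 of 15, with a median of -0.75 and 1 gene past the adjusted limma threshold. Skeletal muscle markers were lower on both in 9 of 10, macrophage markers in 11 of 11 and erythroid markers in 7 of 9. Endothelial markers were lower on both in 5 of 10 and higher in 1, and ureteric bud and collecting duct markers were lower in 4 of 10 and higher in 2. Gonad and duct markers were lower on both in 2 of 8 and higher in 2, and mesothelial markers were lower in 0 of 5 and higher in 2. In the authors' deposited table, 8 smooth muscle, 10 neuron and glia and 11 macrophage markers were lower in both columns, and 0 were higher. Skeletal muscle had 5 lower and 2 higher there, erythroid 4 lower and 1 higher, and endothelial markers 1 lower and 4 higher. The part of any of these cell types in the Hox values was not tested.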

How the data were processed

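Ureter RNA labelled Gata2cKO and control RNA were hybridised together on 2 dye-swapped arrays, the authors' scanner output giving spot intensity per channel (Agilent Feature Extraction 10.7.3.1, per the submitters' processing notes; mm9 positions and protocol GE2_107_Sep09, per the file headers). Intensities were corrected by normexp (offset 50), normalised by loess within each array (span 0.3, control and outlier spots at weight 0) and turned so that each log2 ratio is Gata2cKO over control. Spots of a probe were averaged. A probe was kept if 1 of the RNAs was well above its background on array 1 and on array 2 (25657 of 39429), and the brightest probe stood for a gene, under names updated through RefSeq accessions (GRCm38.p6; 26412 probes matched). limma 3.58.1 (R 4.3.3) tested the ratio against 0, two-sided, with Benjamini-Hochberg adjustment over 20506 genes, on 1 residual and 4.68 prior degrees of freedom. Signals are the normalised channel values. On simulated data with 200 changed genes among 20506, the test recovered 100% of 4-fold and 93% of 2-fold changes. Those genes were all brighter than the median gene, and their noise was drawn from the fit's prior. The rates can therefore overstate what these arrays detect. Cyp26a1, at a mean log2 ratio of -2.02 on the real arrays, had a limma adjusted p of 0.0503. Most Hox differences are smaller than those simulated. The number of arrays limits the precision.

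The scanner software's deposited log10 ratio of red over green, per the file headers, was used only to check its direction. The deposited table holds a score that is a signed fold, inferred from the absence of any value between -1 and 1; its columns' medians are 1 and 1. Its centring is not stated, and its direction was taken from a Pearson r of 0.443 and 0.376 with the loess ratios.

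Genes given in full were the 10 with the largest smaller ratio of the same sign on both arrays, all tested genes numbered 9 to 13, and Hoxb7; of each pathway list, 2 by the first of these rules, and others as context. A Hox gene, a cofactor and a probe sequence are not reported here. Members and lists were chosen with earlier results of these data known. Alternatives covered background, normalisation, filter, probe rule, variance model, outliers, the deposited table and each array alone.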

Additional observations from a re-analysis of the deposited data

Results flagged for a closer look

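For 15 of the 34 tested Hox genes the female array and the male array had opposite signs. That is near the share of all genes tested, which was 46.8%. The difference between the arrays was not tested, since each sex is 1 array and a single dye orientation, which cannot be told apart. Given as the log2 ratio of array 1 minus that of array 2, the differences were 1.33 for Hoxb9, 0.56 for Hoxd9, 0.50 for Hoxb6, 0.47 for Hoxd1, 0.43 for Hoxa4, 0.43 for Hoxa5, 0.40 for Hoxa7, 0.38 for Hoxd3, 0.28 for Hoxb3, 0.23 for Hoxd8, 0.17 for Hoxb7 and 0.0489 for Hoxc10. In these 12 the female array had the higher ratio of Gata2cKO over control. The male array had the higher ratio in Hoxc9, with a difference of -0.68, in Hoxc6, with -0.51, and in Hoxb2, with -0.28. Of all 20506 genes tested, 4724 had opposite signs of the first kind and 4877 of the second.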

How the results depend on the processing

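With 2 arrays and 1 residual degree of freedom, the small number of arrays limits the precision, and Hoxc11 was measured only near background. Each array pairs the 2 RNAs, and the test used the ratio within each array, so this pairing was kept. No further pairing was made, since the replicate numbers are those of the arrays. Of 191 values of single named genes under alternatives, 179 kept their sign and 12 did not. A change of filter, of variance model or of scaling between arrays left these ratios as they were. Those values could not change sign, so the count does not measure robustness. In the authors' deposited table the mean was 0.056 for Hoxa9, 0.32 for Hoxa13, -0.61 for Hoxb8, -0.68 for Hoxb9, -0.13 for Hoxc11 and -0.31 for Hoxd4, and the cause was not tested. With median centring in place of loess, Hoxc10 was -0.0129 and 1 Hox gene in place of 7 had an unadjusted p under 0.05 (1.02% of all genes). On 1 array at a time, Hoxb9 ranged from -0.12 to 1.21, Hoxc9 from -0.52 to 0.16, Hoxc10 from -0.0189 to 0.0299, Hoxb7 from -0.129 to 0.0395 and Hoxd9 from -0.38 to 0.19. An adjusted limma p under 0.05 was reached by 1 Hox gene from the scanner software's processed signals (Hoxc11, adjusted p 0.0265, with a control not well above background; 173 of all genes called) and by 2 with a trended and robust variance (Hoxb8, 0.0384, and Hoxc11, 0.0404; 376 called). At least 1.5-fold on both arrays was reached by 1 Hox gene, in place of 0, with background subtracted and with the processed signals. The count was also 1 in the deposited table (Hoxd12) and with every probe on its own (the second Hoxd11 probe). The share of all genes at that fold under these alternatives is not given here. On 1 array alone the count was 3 on array 1 (3.45% of all genes) and 0 on array 2 (3.42%). The median of the Hoxa cluster was 0.11 and that of Hoxb -0.28 in the deposited table, and on 1 array alone the Hoxa median ranged from -0.0281 to 0.0894. The median of numbers 10 to 13 was between 0.21 and 0.50 under every alternative run. That group was picked after the values were seen, and all alternatives reuse the same 2 arrays, some with unchanged ratios. The number of all genes called was 18, and otherwise 0 with median centring and in the deposited table, 57 with background subtracted, 54 without the filter, 35 with the strict filter and 29 with outlier spots kept.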
